A study of Mus musculus with 6 samples.

Results

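The 10 chemokine ligand genes Cxcl2, Cxcl9, Cxcl10, Cxcl16, Ccl2, Ccl3, Ccl4, Ccl5, Ccl6 and Ccl9 were taken by name from a table of 24965 genes, and all 10 were in it. Chemokines are small secreted proteins that guide leukocytes through G protein-coupled receptors, and they fall mainly into the CXC and CC families by the spacing of their first cysteines. In bone marrow they are made by myeloid cells, lymphocytes and stroma, and many of their genes are switched on by interferons or by NF-kB, the transcription factor downstream of TNF, IL-1 and Toll-like receptors. Both groups were sorted as CD45.2+ donor HSPCs (hematopoietic stem and progenitor cells) 6 h after BMT (bone marrow transplantation). The recipients were CD45.1+ and had received a split dose of 9 Gy. The WT group (3 libraries) came from wild-type donors. The Hemgn-/- group (3 libraries, genotype label KO) came from whole-body Hemgn knockout donors on a C57BL/6 background. The paper describes the mutant allele as a short deletion in the coding sequence with a premature stop codon. It found no HEMGN protein by western blot. Hemgn encodes a nuclear protein of hematopoietic progenitors, and the recipients were not mutant. The methods name young adult donors and LSK cells (lineage-negative, Sca-1+ and c-Kit+), whereas the labels name lineage-negative Sca-1+ cells without c-Kit. Libraries were bulk RNA-seq, and the methods name 3 biological replicates of cells from primary recipients. How many animals stand behind each library was not given, so p-values measure the spread between these libraries only.

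Of the 9 ligands that could be tested, 6 were higher in Hemgn-/- than in WT libraries and 0 were lower. Neutrophil markers summed to 51687 FPKM or more in every library and HSPC markers to 46.4 FPKM or less. Which cells made the ligand RNA was not tested. Cxcl10, Cxcl9 and Ccl2, which attract activated T cells, NK cells and monocytes, had the largest differences, with mean levels 2.73, 3.33 and 2.08 times those of WT. Cxcl2, Ccl6 and Ccl9 rose by less, to 1.35, 1.40 and 1.33 times the WT mean. Ccl3, Ccl4 and Ccl5 did not pass the test, with means 1.18, 1.22 and 1.14 times those of WT. Over all 13739 genes tested, 4.37% were called higher and 2.09% lower. Calls were made at an adjusted p under 0.05 from limma on log2(FPKM + 1), where FPKM is the number of fragments scaled to transcript length and library depth, and the pseudocount of 1 shrinks the fold changes of low genes. Of the 9 tested ligands, 8 had every Hemgn-/- library above every WT library, a separation seen in 19.2% of all genes tested. At p under 0.05 and at least 1.5-fold, 3 ligands (Cxcl9, Cxcl10 and Ccl2) were higher, against 4.1% of all genes. With 3 libraries against 3, an exact two-sided permutation test of a single gene cannot go below p = 0.1.

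Some facts of the whole data set touch these values. Library depth, inferred from whole steps in the low FPKM values, ranged from 23668015 to 28897360 fragments. With it, 1 fragment on a transcript of 1 kb was worth 0.0346 to 0.0423 FPKM. This depth is the divisor of the FPKM values. Recovered fragments summed over genes exceeded it in every library (2.52e+07 against 23668015 in WT replicate 1). Hemgn itself was at 5.64, 2.96 and 4.68 FPKM in WT and at 0.755, 0.913 and 1.60 FPKM in Hemgn-/- libraries (log2 fold change −1.37, adjusted p = 0.0114, and 0.0503 without WT replicate 3). As deposited, 600 genes were called higher and 287 lower over the whole table, with median-ratio scaling 341 and 386, with quantile normalization 368 and 346, and with rescaling to the same FPKM total 1049 and 238.

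The markers of the labelled cells were low. The 10 HSPC markers summed to 28.6 to 35.6 FPKM in WT and 37.5 to 46.4 FPKM in Hemgn-/- libraries, and 1 of 9 tested (Cd34) was called higher. Kit, the gene of c-Kit, was at 6.58 ± 0.58 FPKM (SD, n = 3) in WT and 5.68 ± 0.21 FPKM (SD, n = 3) in Hemgn-/-. The 11 neutrophil markers summed to 77900 to 83953 FPKM in WT and 51687 to 57147 FPKM in Hemgn-/-, with 4 called lower (Ngp, Ltf, Camp, Cd177) and 1 higher (Cxcr2). Ngp, with means of 44876 FPKM in WT and 27132 in Hemgn-/-, was the largest part of this sum. Of 6 granulocyte precursor markers, 4 were called lower and none higher (summed, 759 to 823 FPKM in WT and 518 to 565 in Hemgn-/-). Of 14 monocyte and macrophage markers, Csf1r, Adgre1 and Mpeg1 were called higher and Lyz2 and C1qb lower. The sum of the list was 23227 to 25928 FPKM in WT and 16792 to 20923 in Hemgn-/-. It was nearly all Lyz2 (means of 24118 FPKM in WT and 18724 in Hemgn-/-), so it says little of the other markers. T and NK cell markers (4 of 12 higher, 244 to 271 FPKM in WT and 292 to 323 in Hemgn-/-), B lineage markers (3 of 8 higher, 1165 to 1226 and 1384 to 1558) and plasmacytoid dendritic cell markers (3 of 7 higher, 78.2 to 115 and 99.99 to 119) were called in the higher direction alone. Eosinophil markers (3 of 5 lower, 268 to 329 in WT and 66.5 to 82.7 in Hemgn-/-) and erythroid markers (5 of 7 tested lower, 453 to 543 and 25.7 to 41.3) were called in the lower direction alone. No marker was called among conventional dendritic, basophil and mast, megakaryocyte and platelet, or endothelial and stromal cell lists, whose summed levels overlapped between the groups. Most of the conventional dendritic sum was H2-Ab1 (means of 403 FPKM in WT and 365 in Hemgn-/-). Most of the plasmacytoid dendritic sum was Ly6d (81.7 and 84.2). Of all markers, Hba-a2 alone was at 0 in any library (Hemgn-/- replicates 2 and 3). The part of these cells in the ligand differences was not tested, and in bulk RNA a change in the number of cells that express a gene and a change in RNA per cell cannot be told apart.

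**Figure D1:**
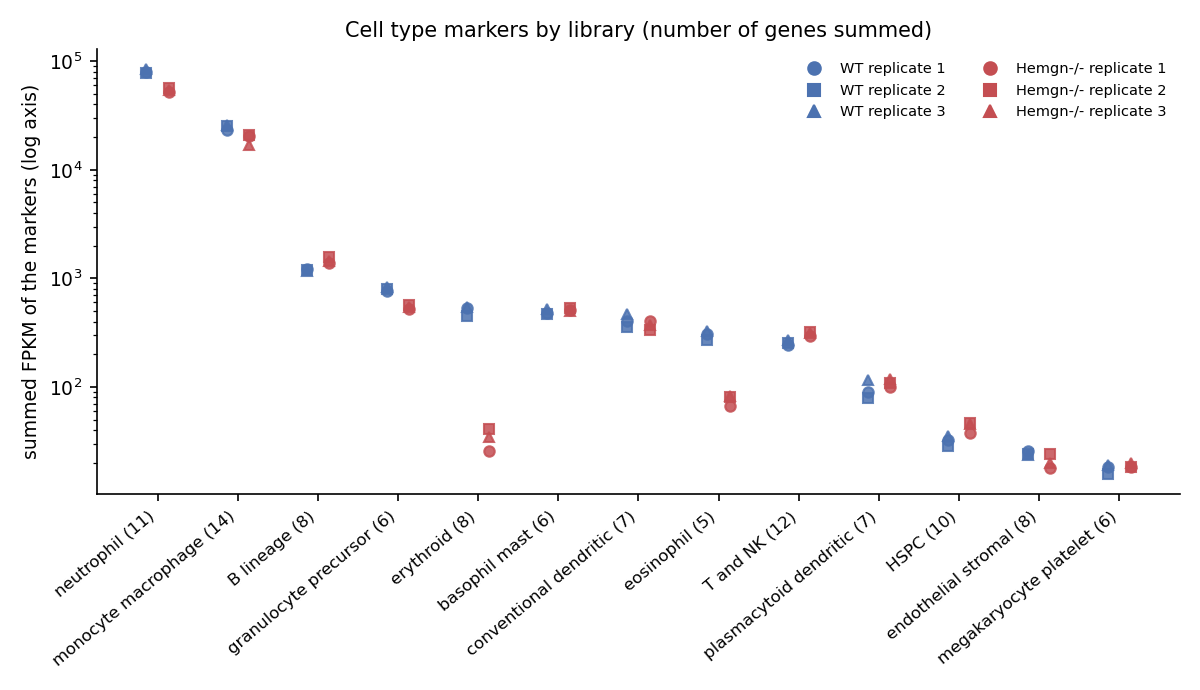
Summed FPKM (log axis) of each list of cell type markers, 1 point per library, with the number of genes summed in brackets. Neutrophil markers are the highest sum in every library, at 51687 FPKM or more, and HSPC markers are at 46.4 FPKM or less.

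The upstream sequence of the genes is shown for 3 ligands, because Cxcl10 and Cxcl9 are neighbours with the largest fold changes and Cxcl2 is the most abundant CXC ligand. RefSeq promoter windows (GRCm38.p6) were at hand for 6 ligands, and Cxcl16, Ccl2, Ccl4 and Ccl5 had none. The 250 bases before each start were searched on both strands for the interferon-stimulated response element core GAAANNGAAA, for the gamma-activated sequence TTCNNNGAA and for the NF-kB consensus, and matches are in capitals. Each stretch runs 5′ to 3′ on the strand of the gene, from base 250 to base 31 before the start.
Cxcl10 (chr5:92348920-92349139, minus strand): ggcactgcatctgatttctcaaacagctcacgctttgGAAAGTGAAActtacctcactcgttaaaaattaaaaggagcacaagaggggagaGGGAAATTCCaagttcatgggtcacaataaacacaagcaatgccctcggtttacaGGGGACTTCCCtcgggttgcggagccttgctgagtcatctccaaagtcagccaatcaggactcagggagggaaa
Cxcl9 (chr5:92328110-92328329, minus strand): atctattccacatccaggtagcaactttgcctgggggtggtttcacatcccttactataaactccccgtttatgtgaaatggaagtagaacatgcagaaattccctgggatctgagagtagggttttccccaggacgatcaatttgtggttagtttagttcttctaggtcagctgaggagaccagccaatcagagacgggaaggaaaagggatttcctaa
Cxcl2 (chr5:90903649-90903868, plus strand): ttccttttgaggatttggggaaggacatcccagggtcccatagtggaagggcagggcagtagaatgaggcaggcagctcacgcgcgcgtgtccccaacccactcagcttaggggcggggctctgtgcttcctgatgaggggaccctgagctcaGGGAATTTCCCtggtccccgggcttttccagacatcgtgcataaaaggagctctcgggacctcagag

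The response element core was found in Cxcl10 alone among the 6 windows, 213 to 204 bases before the start, and in 2.98% of all 32851 promoter windows. The NF-kB consensus was found in 3 of 6 windows and in 7.25% of all windows. In Cxcl10 it matched at 159 to 150 and, in overlapping copies and on both strands, at 104 to 94 bases before the start. In Cxcl2 it matched once on each strand at 97 to 87, and in Ccl9 at 35 to 26 bases before the start on the opposite strand. No match of one motif overlapped a match of another. The gamma-activated sequence was in none of the 6 windows and in 7.02% of all. These are matches of letters, and no binding was measured.

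The levels of the 10 ligands ranged from 0.103 FPKM (Cxcl16 in a WT library) to 709 FPKM (Ccl6 in a Hemgn-/- library), on a scale that is per transcript length. In WT libraries the order was Ccl6, Cxcl2, Ccl3, Ccl4, Ccl9, Ccl5, Ccl2, Cxcl10, Cxcl9 and Cxcl16, and only the neighbours Ccl9 and Ccl5 had overlapping values. The same order held for the Hemgn-/- means, where Ccl4 overlapped with Ccl9, and Ccl9 with Ccl5. Ccl6, Cxcl2 and Ccl3 alone made up 89.0% to 90.3% of the summed FPKM of the 10 ligands in each library. That sum was 1280, 1355 and 1247 FPKM in WT and 1600, 1891 and 1686 FPKM in Hemgn-/- libraries, with no overlap. The ligands took 1960 to 2168 of every 1000000 fragments of the inferred depth in WT and 2584 to 3093 in Hemgn-/- libraries.

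**Figure D2:**
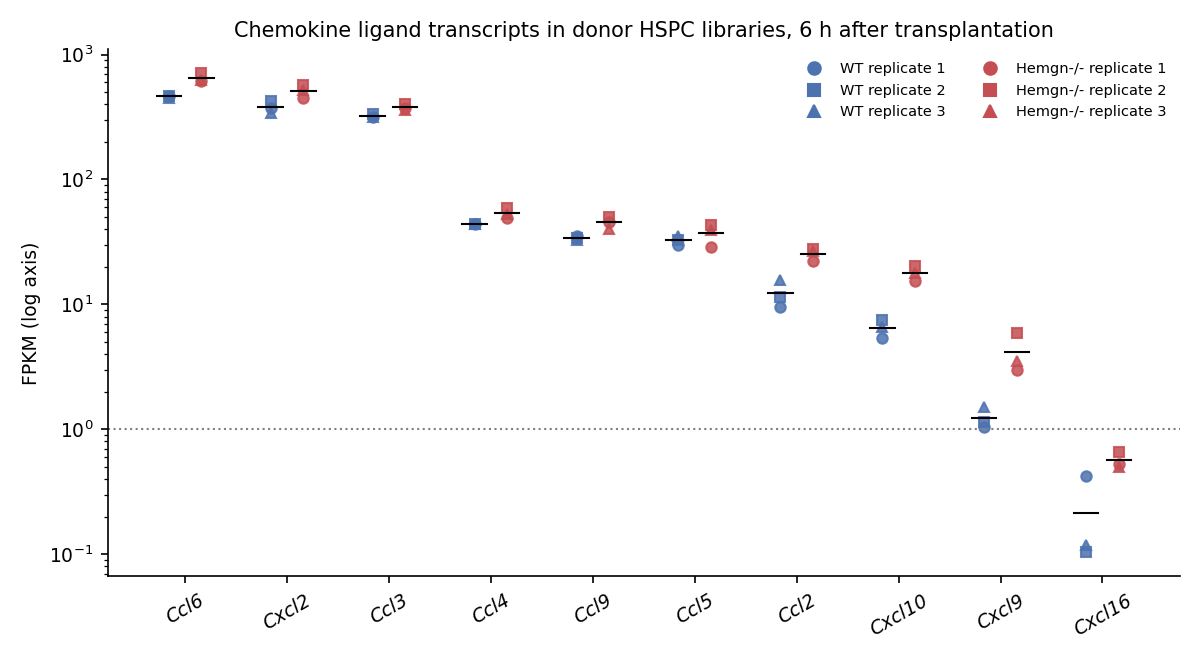
FPKM (log axis) of the 10 chemokine ligands in each library, ordered by mean level, with blue for WT, red for Hemgn-/-, a marker shape per replicate and a bar at each group mean. The dotted line is at 1 FPKM, the level a gene had to pass in at least 1 library to be tested, and Cxcl16 lies under it in every library.

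Cxcl9 and Cxcl10 encode ligands of CXCR3, the receptor that draws activated T cells and NK cells to inflamed tissue, and both are classical interferon-inducible genes. Cxcl10 (ENSMUSG00000034855, chr5:92346638-92348889, minus strand) was at 5.42, 7.51 and 6.65 FPKM in WT and at 15.4, 20.2 and 17.9 FPKM in Hemgn-/- libraries. The lowest Hemgn-/- library had more than double the level of the highest WT library. The log2 fold change was 1.32 (SE 0.14, 95% interval 1.00 to 1.64, adjusted p = 0.0016). This call held in all 15 alternatives, with adjusted p-values from 0.00065 to 0.0129. Cxcl9 (ENSMUSG00000029417, chr5:92321347-92328079, minus strand) was at 1.05, 1.15 and 1.52 FPKM in WT and at 2.98, 5.90 and 3.52 FPKM in Hemgn-/- libraries. These values stand for 75 to 127 fragments in WT and 247 to 466 fragments in Hemgn-/- libraries, and the groups did not overlap. Cxcl9 rose by 1.16 on the log2 scale (SE 0.22, 95% interval 0.66 to 1.66, adjusted p = 0.0176), but the adjusted p was 0.0604 without WT replicate 1 and 0.0554 without Hemgn-/- replicate 3. The third CXCR3 ligand, Cxcl11, lies next to Cxcl10 in the same 44.1 kb and was near 0, at 0 to 0.0891 FPKM in WT and 0.0705 to 0.327 FPKM in Hemgn-/- libraries. Cxcr3 itself was at 8.59 ± 0.27 (SD, n = 3) FPKM in WT and 8.88 ± 0.46 (SD, n = 3) in Hemgn-/-, and its 95% interval on the log2 scale was −0.18 to 0.26.

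The genes most like Cxcl10 across the 6 libraries, by Pearson's r of log2(FPKM + 1), were Gm15433 (r = 0.997), Gm47230 (0.997), Hmgcs1 (0.997), Man2b1 (0.996) and Gm23504 (0.995). Gm15433 was at 0.379 to 0.702 FPKM in WT and 3.19 to 4.72 FPKM in Hemgn-/- libraries. Hmgcs1, an enzyme of cholesterol synthesis, was at 5.81 to 6.34 FPKM in WT and 8.70 to 9.55 FPKM in Hemgn-/-. Man2b1, a lysosomal mannosidase, was at 56.4 to 59.5 FPKM in WT and 65.3 to 68.1 FPKM in Hemgn-/-. All 6 points share the genotype split, so any gene that separates the groups evenly scores high on this measure.

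Ccl2 (MCP-1) is the main attractant of CCR2+ monocytes, and CCR2 is its receptor. Ccl2 (ENSMUSG00000035385, chr11:82035571-82037453, plus strand) was at 9.50, 11.5 and 15.8 FPKM in WT and at 22.2, 27.6 and 26.8 FPKM in Hemgn-/- libraries. The groups did not overlap, and WT replicate 3 was the WT library nearest to the Hemgn-/- group. Its log2 fold change was 1.02 (SE 0.17, 95% interval 0.64 to 1.41, adjusted p = 0.0102), with an adjusted p of 0.0518 without Hemgn-/- replicate 3. Ccr2 rose as well, from 16.4, 15.3 and 15.5 FPKM to 35.2, 28.2 and 34.6 FPKM (log2 fold change 1.00, SE 0.10, adjusted p = 0.0014). Ccl7 and Ccl12, the neighbours of Ccl2 that also bind CCR2, were at 1.26 ± 0.096 and 0.576 ± 0.456 FPKM (SD, n = 3) in WT and at 1.09 ± 0.36 and 0.853 ± 0.130 FPKM (SD, n = 3) in Hemgn-/-, and neither passed the test (adjusted p = 0.751 and 0.586).

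Cxcl2 (MIP-2) attracts neutrophils through CXCR2 and is made by activated myeloid cells. Cxcl2 (ENSMUSG00000058427, chr5:90903871-90905938, plus strand) was at 374, 422 and 341 FPKM in WT and at 450, 571 and 517 FPKM in Hemgn-/- libraries. The highest WT library lay close to the lowest Hemgn-/- library, without overlap. The log2 fold change was 0.43 (SE 0.10, 95% interval 0.20 to 0.67, adjusted p = 0.0454). Its call was lost without WT replicate 1 (adjusted p = 0.118), WT replicate 3 (0.131), Hemgn-/- replicate 2 (0.124) or Hemgn-/- replicate 3 (0.149), and with median-ratio scaling (0.115). Cxcr2 stood further apart, at 277, 280 and 275 FPKM in WT and 423, 412 and 410 FPKM in Hemgn-/- libraries (log2 fold change 0.58, SE 0.053, adjusted p = 0.00066). Cxcr2 was the one neutrophil marker called higher, while the granule protein Ngp went from 44876 to 27132 FPKM in the mean. The other CXCR2 ligands Cxcl1 and Cxcl3 were far lower than Cxcl2, at 4.18 ± 0.87 and 2.66 ± 0.94 FPKM (SD, n = 3) in WT and 5.91 ± 2.07 and 4.39 ± 1.62 FPKM (SD, n = 3) in Hemgn-/-, with groups that overlapped (adjusted p = 0.413 and 0.261).

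Ccl6 and Ccl9 are CC ligands of CCR1 that are known from mouse myeloid cells. They lie beside each other on chromosome 11, in a stretch of 139 kb that also holds Ccl5, Ccl3 and Ccl4. Ccl6 (ENSMUSG00000018927, chr11:83587882-83593087, minus strand), the most abundant ligand, was at 466, 469 and 451 FPKM in WT and at 611, 709 and 627 FPKM in Hemgn-/- libraries. Every Hemgn-/- library lay above every WT library, and the 3 WT libraries lay close together. The log2 fold change was 0.49 (SE 0.068, 95% interval 0.33 to 0.64, adjusted p = 0.0050), and no single library was needed for this call (adjusted p = 0.0102 to 0.0264 with 1 left out). The Ccl6 call was lost with eBayes without a trend (adjusted p = 0.0650). Ccl9 (ENSMUSG00000019122, chr11:83572919-83578636, minus strand) was at 35.2, 34.1 and 33.0 FPKM in WT and at 45.3, 50.1 and 40.5 FPKM in Hemgn-/- libraries. Its groups did not overlap, and its log2 fold change was 0.40 (SE 0.092, 95% interval 0.18 to 0.61, adjusted p = 0.0412). The Ccl9 call was lost without any single library other than Hemgn-/- replicate 3 (adjusted p = 0.0913, 0.0816 and 0.118 on leaving out WT replicates 1, 2 and 3, and 0.0929 and 0.112 on leaving out Hemgn-/- replicates 1 and 2), and also with median-ratio scaling (0.125) and quantile normalization (0.0906). Ccr1 was at 261, 277 and 281 FPKM in WT and at 346, 336 and 321 FPKM in Hemgn-/- libraries (log2 fold change 0.29, SE 0.061, adjusted p = 0.0273). Ccr1 was not called without Hemgn-/- replicates 1, 2 or 3 or WT replicates 1 or 3, when its adjusted p lay between 0.0585 and 0.104.

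Ccl3 (MIP-1α), Ccl4 (MIP-1β) and Ccl5 (RANTES) are inflammatory CC chemokines that attract monocytes and T cells, and Ccl3 and Ccl5 signal through CCR1. Ccl3 (ENSMUSG00000000982, chr11:83647844-83649355, minus strand) was at 314, 332 and 319 FPKM in WT and at 375, 403 and 361 FPKM in Hemgn-/- libraries. Ccl4 (ENSMUSG00000018930, chr11:83662584-83664683, plus strand) was at 43.9, 43.8 and 44.3 FPKM in WT and at 49.4, 59.3 and 52.8 FPKM in Hemgn-/- libraries. Neither gene had overlapping groups, yet neither passed the test. Their log2 fold changes were 0.24 (SE 0.063, 95% interval 0.09 to 0.38, adjusted p = 0.0660) and 0.28 (SE 0.084, 95% interval 0.09 to 0.47, adjusted p = 0.0929). Rescaling to the same FPKM total brought both past the threshold (adjusted p = 0.0136 and 0.0236), and quantile normalization Ccl3 alone (0.0430). Ccl5 (ENSMUSG00000035042, chr11:83525778-83530518, minus strand), a product of T and NK cells among others, was at 29.9, 32.6 and 35.3 FPKM in WT and at 28.7, 43.3 and 39.6 FPKM in Hemgn-/- libraries. It was the one ligand whose groups overlapped, since Hemgn-/- replicate 1 was the lowest of all 6 libraries. Its 95% interval on the log2 scale, −0.16 to 0.50, covered 0 (adjusted p = 0.553).

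Cxcl16 encodes a ligand of CXCR6 that is anchored in the membrane until ADAM10 cuts it free. Cxcl16 (ENSMUSG00000018920, chr11:70453983-70459984, minus strand) never passed 1 FPKM and was not tested. It was at 0.420, 0.103 and 0.119 FPKM in WT and at 0.531, 0.658 and 0.504 FPKM in Hemgn-/- libraries, from 30, 8 and 10 against 44, 52 and 44 fragments. Every Hemgn-/- library was above every WT library, but WT replicate 1 lay nearer to the Hemgn-/- group than to its own. With all genes kept, its log2 difference of 0.37 had an adjusted p of 0.274. Cxcr6 was at 2.70 ± 0.60 FPKM (SD, n = 3) in WT and 3.15 ± 0.73 FPKM (SD, n = 3) in Hemgn-/- (adjusted p = 0.649).

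**Figure D3:**
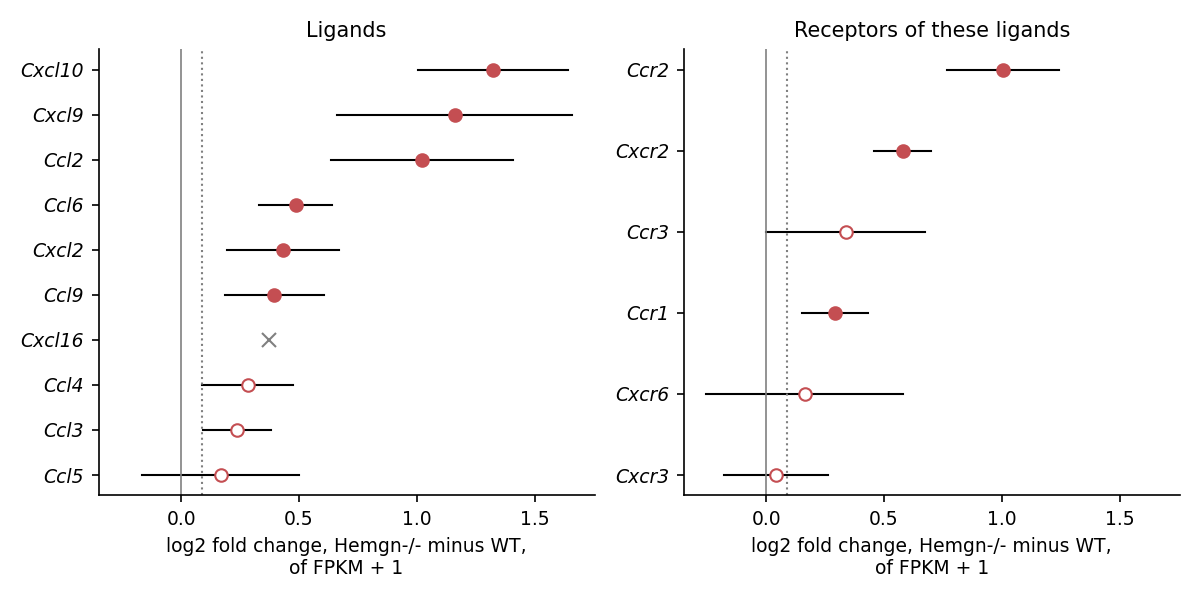
Log2 fold change (Hemgn-/- minus WT, of FPKM + 1) of the ligands (left) and of 6 receptors that bind them (right), with 95% intervals from limma. Filled points passed an adjusted p under 0.05, open points did not, the cross is Cxcl16 (not tested), and the dotted line is the median of all genes tested (0.087). Cxcl10, Cxcl9 and Ccl2 lie at 1.02 or above among the ligands, and Ccr2 at 1.00 among the receptors.

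The spread within the Hemgn-/- group had one feature common to the ligands. Hemgn-/- replicate 2 was the highest Hemgn-/- library for all 10 ligands, whereas it was the highest for 33.0% of all genes tested. This was also so after median-ratio scaling (10 of 10, against 33.2% of genes) and after rescaling to the same FPKM total (10 of 10, against 27.6%). In WT the highest library was replicate 1 for 2 ligands, replicate 2 for 4 and replicate 3 for 4. Hemgn-/- replicate 2 also had the highest Hemgn-/- sums of B lineage (1558 FPKM), T and NK cell (323), neutrophil (57147), and monocyte and macrophage markers (20923). The same held for granulocyte precursor (565), basophil and mast (528), HSPC (46.4), erythroid (41.3), and endothelial and stromal markers (24.1). It did not hold for plasmacytoid dendritic, conventional dendritic, eosinophil, or megakaryocyte and platelet markers. The part of any of these cells in the ligand pattern was not tested. Without that library 4 ligands were called higher (Cxcl9, Cxcl10, Ccl2 and Ccl6), and 3 were called without WT replicate 1 or without Hemgn-/- replicate 3.

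**Figure D4:**
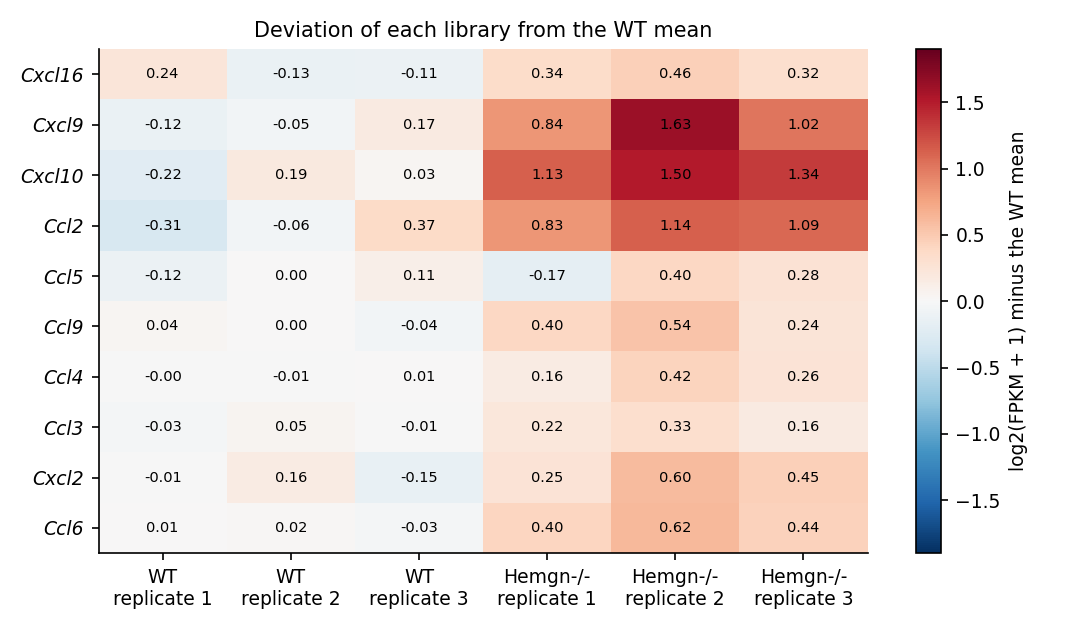
Difference of each library from the WT mean in log2(FPKM + 1), for each ligand (rows, lowest level at the top) and library (columns), with the value printed in each cell. The cells of Hemgn-/- replicate 2 hold the highest value of every row, from 0.33 for Ccl3 to 1.63 for Cxcl9, and Ccl5 in Hemgn-/- replicate 1 is the only cell below 0 in the Hemgn-/- columns (−0.17).

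Other chemokine ligands were taken as a list for comparison. Of 31 other ligand genes 23 were in the table, 10 were tested and 0 were called, in limma and in voom alike, and 1 (Ccl22) had an unadjusted p under 0.05. Their median log2 fold change was 0.09, that of the 9 tested ligands above 0.43 and that of all genes 0.087. Cxcl12, which holds HSPCs in the marrow through CXCR4, was at 13.0, 14.1 and 10.9 FPKM in WT and at 10.1, 14.1 and 11.5 FPKM in Hemgn-/- libraries (95% interval −0.41 to 0.24 on the log2 scale, adjusted p = 0.760). Pf4, a platelet chemokine, was at 4.14 ± 0.62 and 3.42 ± 0.41 FPKM (SD, n = 3 each, adjusted p = 0.443), and Xcl1, made by NK and T cells, at 3.88 ± 0.99 and 5.62 ± 1.62 FPKM (SD, n = 3 each, adjusted p = 0.278) in WT and Hemgn-/-. Ccl22 was chosen for its p after its values were seen, with 0.309, 0.840 and 0 FPKM in WT and 1.29, 1.53 and 0.923 FPKM in Hemgn-/- libraries.

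The receptors were described as 2 lists, those that bind one of the ligands and the rest. Of the 7 receptors in the first, 4 were higher, Cxcr2, Ccr1 and Ccr2 among them, 0 were lower and 3 did not pass (Cxcr3, Cxcr6 and Ccr3). The shares over all genes tested were 4.37% higher and 2.09% lower. Ccr3, an eosinophil receptor that binds Ccl5, was at 1.95 ± 0.30 FPKM (SD, n = 3) in WT and 2.72 ± 0.23 FPKM (SD, n = 3) in Hemgn-/- (adjusted p = 0.235), in libraries in which 3 of 5 eosinophil markers were called lower. Among 11 tested of 17 other chemokine receptors, 4 were higher and 0 lower. In this list 8 log2 fold changes were positive. Those of Ccr8, Ackr1 and Ccr10 were negative (−0.71, −0.59 and −0.22) and did not pass (adjusted p = 0.112, 0.103 and 0.537). Ccrl2, a non-signalling receptor that presents chemerin, went from 69.2, 69.5 and 68.5 FPKM to 124, 144 and 141 FPKM (log2 fold change 0.97, adjusted p = 0.00028). Cxcr5 (log2 fold change 0.95, adjusted p = 0.0074), Ccr6 (0.80, 0.0343) and Ccr7 (0.40, 0.0164), which guide lymphocytes within lymphoid tissue, were higher. In these libraries 3 of 8 B lineage markers and 4 of 12 T and NK cell markers (Cd3d, Ncr1, Gzma and Prf1) were also called higher. The other markers of both lists were not called, among them Trac (log2 fold change 0.10, adjusted p = 0.486), Cd3e (0.25, 0.471) and Ebf1 (−0.044, 0.780). The part of lymphocytes in the receptor levels was not tested. The calls for Ccr6 and Ccr7 were lost without WT replicate 1 (adjusted p = 0.0972 and 0.0610), WT replicate 3 (0.102 and 0.0588), Hemgn-/- replicate 2 (0.112 and 0.0583) or Hemgn-/- replicate 3 (0.130 and 0.0856). Of the receptors that bind one of the ligands, 2 were called without WT replicate 1 or 3 or Hemgn-/- replicate 1 or 2, and with median-ratio scaling 2 of each list were called.

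Genes of the interferon and NF-kB routes were described by the same test. For all genes tested, 4.37% were called higher and 2.09% lower, and the median log2 fold change was 0.087. Of 17 interferon route genes, 5 were higher (Ifngr2, Ifnar1, Irf1, Irf8 and Socs3), 0 were lower and 12 did not pass, with a median log2 fold change of 0.30. Irf1, a transcription factor induced by interferon-γ, was at 52.1, 52.0 and 42.6 FPKM in WT and at 76.9, 82.7 and 88.3 FPKM in Hemgn-/- libraries (log2 fold change 0.75, adjusted p = 0.0038). Irf8, a factor of the monocyte and dendritic cell lineages, rose by 0.75 (adjusted p = 0.00066), Socs3, a feedback inhibitor of JAK-STAT signalling, by 0.83 (adjusted p = 0.00066) and Ifngr2, a chain of the interferon-γ receptor, by 0.45 (adjusted p = 0.0158) on the log2 scale. Of 19 NF-kB route genes, 7 were higher (Nfkb2, Nfkbia, Nfkbiz, Ikbkb, Myd88, Tnf and Il1b), 0 were lower and 12 did not pass, with a median of 0.38. Nfkbiz, a nuclear co-regulator of NF-kB, rose by 0.70 (adjusted p = 0.0013) and Nfkb2, a subunit, by 0.43 (adjusted p = 0.0227). The cytokine Il1b was at 190, 197 and 167 FPKM in WT and at 249, 324 and 274 FPKM in Hemgn-/- libraries (log2 fold change 0.61, adjusted p = 0.0125, and 0.0529 without Hemgn-/- replicate 3). Tnf rose by 0.46 (adjusted p = 0.0451), a call lost with each library left out in turn. Ifngr2 was not called without WT replicate 3 (adjusted p = 0.0559), Hemgn-/- replicate 2 (0.0567) or Hemgn-/- replicate 3 (0.0825), nor Nfkb2 without WT replicate 1 (0.0509), WT replicate 3 (0.0697), Hemgn-/- replicate 2 (0.0594) or Hemgn-/- replicate 3 (0.105). The NF-kB count was 3 with median-ratio scaling, 4 on leaving out WT replicate 1 or Hemgn-/- replicate 2, 3 on leaving out WT replicate 3 and 2 on leaving out Hemgn-/- replicate 3. The interferon count was 3 on leaving out WT replicate 3, and 3 on leaving out Hemgn-/- replicate 3.

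Proteases that trim or release chemokines make up the last list. Of 8 tested, Elane, the neutrophil elastase of granulocyte precursors, was called lower, at 289, 305 and 313 FPKM in WT and 166, 197 and 185 FPKM in Hemgn-/- libraries (log2 fold change −0.73, SE 0.076, adjusted p = 0.0015). Of the 6 granulocyte precursor markers, which include Elane, 4 were called lower (Elane, Mpo, Ms4a3 and Cebpe). The other 7 proteases did not pass the test, and 0 were higher. Among all genes tested, 2.09% were called lower and 4.37% higher.

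**Figure D5:**
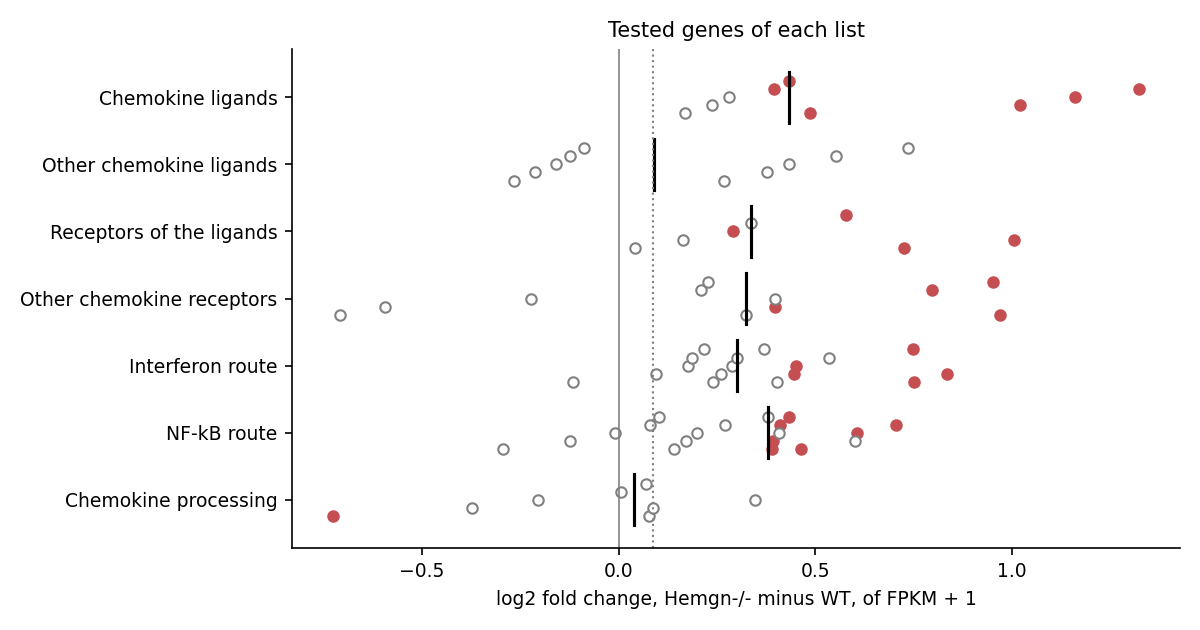
Log2 fold change (Hemgn-/- minus WT, of FPKM + 1) of every tested gene of each list, filled where the adjusted p was under 0.05, with a bar at the median of the list and a dotted line at the median of all genes tested (0.087). Filled points lie to the right of 0 in the ligand, receptor, interferon and NF-kB lists, the other chemokine ligands have none, and Elane at −0.73 is the only filled point to the left.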

How the data were processed

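RNA-seq of 3 WT and 3 Hemgn-/- libraries was analysed, grouped by the genotype in the labels. The table as deposited holds an FPKM value for each gene in each library, and 0 value columns were left unmapped. The submitters' processing notes name HISAT2 2.1.0, TopHat2, Bowtie2 2.2.3, HTSeq 0.6.0 and the build GRCm38, without roles, and the labels and the study's methods differ on the library kit and on the injection route. Counting by strand is not given in the sources used here. Ensembl identifiers were matched to GENCODE M21 of GRCm38 (24921 of 24965 genes, 44 not matched). Low FPKM values came in whole steps: with exon lengths of that annotation, 95.4% of 13472 genes of at most 100 fragments gave whole fragments within 0.02 in all libraries, which gave the depth. Fragments from amplified cDNA are not independent molecules.

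Genes above 1 FPKM in at least 1 library (13739) were compared as log2(FPKM + 1) with limma 3.58.1 (lmFit, eBayes with a trend) in R 4.3.3, with all 6 libraries, no covariate, two-sided p-values and Benjamini-Hochberg adjustment over all genes tested. Each tested ligand passed this filter in both groups. The procedure was tested on simulated data. Standard errors and 95% intervals are limma's, and SD is over libraries on the FPKM scale. Ligands and gene lists were chosen with earlier results of these data known. Genes named are the 10 ligands, Hemgn, the 7 receptors that bind a ligand, up to 4 called genes of each other list with the largest fold change, the other ligands at least as high as the lowest tested ligand, and the 5 genes most like Cxcl10. Some genes of the lists are not reported here by name, although they entered the counts and the adjustment. Others, such as Cxcl11, Ccl7 and Ccl12, were added after their values were seen. Alternatives were another pseudocount, other filters, scalings and variance models, a replicate block, voom on recovered fragments, and leaving out each library. Python 3.11.15 with pandas 2.3.3, numpy 2.4.6 and matplotlib 3.10.9 did the rest.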

Additional observations from a re-analysis of the deposited data

How the results depend on the processing

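All 135 ligand values from 15 alternatives for 9 tested ligands were positive, and 109 stayed on the same side of the threshold, 23 fell short of a call and 3 gained one. The 6 ligands called higher became 2 with all genes above 0 tested and 3 without a trend in eBayes. All genes called (887) became 466 with all genes above 0 tested and 390 without a trend. The 4 called receptors of the ligands became 2 with all genes above 0, with median-ratio scaling, without a trend and with the replicate block, and the 4 other receptors 2 with median-ratio scaling and without a trend. The 5 interferon route genes became 10 with rescaling to the same FPKM total, 8 with voom and 3 without a trend. The 7 NF-kB route genes became 3 with all genes above 0 or median-ratio scaling, 4 with quantile normalization or the replicate block, and 1 without a trend. The 1 processing gene, called lower, became 2 lower with median-ratio scaling. It became 1 higher and 1 lower with rescaling to the same FPKM total, quantile normalization and voom. With each library left out in turn, calls ranged from 373 to 688 over all genes, 3 to 5 ligands, 2 to 3 receptors of the ligands, 2 to 4 other receptors, 3 to 5 interferon route genes and 2 to 6 NF-kB route genes. The part of each setting in these changes was not tested beyond its own construction, such as more genes or fewer libraries in the fit.

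No pairing by replicate number was visible: deviations from the group means of same-numbered libraries correlated at −0.0428, −0.00936 and 0.0111. These values cannot show whether such libraries were handled together. With the replicate number as a block 636 genes and 5 ligands were called, Ccl9 being the one lost (adjusted p = 0.0596). At this depth Cxcl16, with as few as 8 fragments in a library, and Cxcl9 in WT, with 75 to 127, were the least precisely counted ligands.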
